A study of Homo sapiens with 12 samples.

Results

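The phase I and II drug-metabolizing enzymes of SNU449 hepatocellular carcinoma cells were examined across regorafenib (Rego) resistance and loss of the receptor tyrosine kinase Axl. Members were all protein-coding genes of the table over 12 libraries whose symbols begin with the family names of cytochromes P450 1 to 4 (CYP1 to CYP4), UDP-glucuronosyltransferases (UGT), sulfotransferases (SULT), glutathione S-transferases (GST), aldehyde dehydrogenases (ALDH1), flavin monooxygenases (FMO), carboxylesterases (CES) or N-acetyltransferases (NAT). The rule found 36 of the 15601 genes, namely 9 CYP, 3 FMO, 2 CES, 5 ALDH1, 2 UGT, 4 SULT, 8 GST and 1 NAT gene, and also ALDH16A1 and ALDH18A1, which share the letters of ALDH1 but not its function. GENCODE release 44 annotates 103 protein-coding genes that satisfy the same rule, and the table, built on release 40, lists 36 of them. The authors filtered low counts and removed duplicate gene identifiers, and why a given gene is absent is not known here.

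SNU449 is an established line of human hepatocellular carcinoma with mesenchymal features, from which SNU449-Axl- cells were derived by disrupting the Axl gene with CRISPR/Cas9. The 4 groups were untreated SNU449 control cells, Rego-resistant SNU449 cells, and the same untreated and Rego-resistant states of SNU449-Axl-, with 3 libraries each, where the resistant cells had been adapted from 50% of the IC50 in steps of 50% up to 2 times the IC50 and received Rego again after every passage. Each group stands for 1 population whose 3 libraries are technical triplicates by the study's design, so that p-values cover only the spread between libraries and resistance or Axl loss cannot be told apart from other differences between the populations. Whether SNU449-Axl- cells are 1 clone is not given in the sources used here.

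Phase I enzymes introduce or expose a reactive group on a drug, hormone or pollutant by oxidation or hydrolysis, and phase II enzymes attach glucuronic acid, sulfate, glutathione or an acetyl group so that the product can be excreted. Hepatocytes are the main site of both, and their enzyme genes are controlled by nuclear receptors such as the pregnane X receptor, by the aryl hydrocarbon receptor and by the oxidant-responsive factor NRF2. Regorafenib itself is oxidized by CYP3A4 and glucuronidated by UGT1A9. A lookup of these symbols found 0 rows for CYP3A4 and 0 rows for UGT1A9 in the table, so neither was analysed here.

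The value of a library is a rounded whole number on the scale of variance-stabilized expression from which the authors had subtracted differences between preparations, with a minimum of 12. It is not a count, weakly expressed genes are compressed towards the minimum, and fold changes below are differences of log2(value + 1). The depth of each library is unknown. The authors' mean normalized counts summed to 4159387 to 4916825 per table, and 12 of the 36 enzymes had a mean normalized count under 10. Genes were called at a Benjamini-Hochberg adjusted p under 0.05 in limma, with adjustment over all 15601 genes and the replicate number entered as a blocking term. As a check of the labels, AXL had library values of 727, 941 and 715 in SNU449 control, 1237, 815 and 1271 in SNU449 Rego, 35, 53 and 33 in SNU449-Axl- control and 50, 38 and 52 in SNU449-Axl- Rego cells. Of 10 hepatocyte markers, 3 were among the rows analysed (APOA1, FGB and AFP), and ALB and HNF4A were not, while VIM and 4 other mesenchymal markers were all listed. Markers of leukocytes (CD14 and PTPRC, of 3 markers) summed to 42 to 70 per library, and none of 3 endothelial markers was among the rows. In RNA from a bulk population, fewer cells that express a gene and less RNA per cell cannot be told apart.

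**Figure D1:**
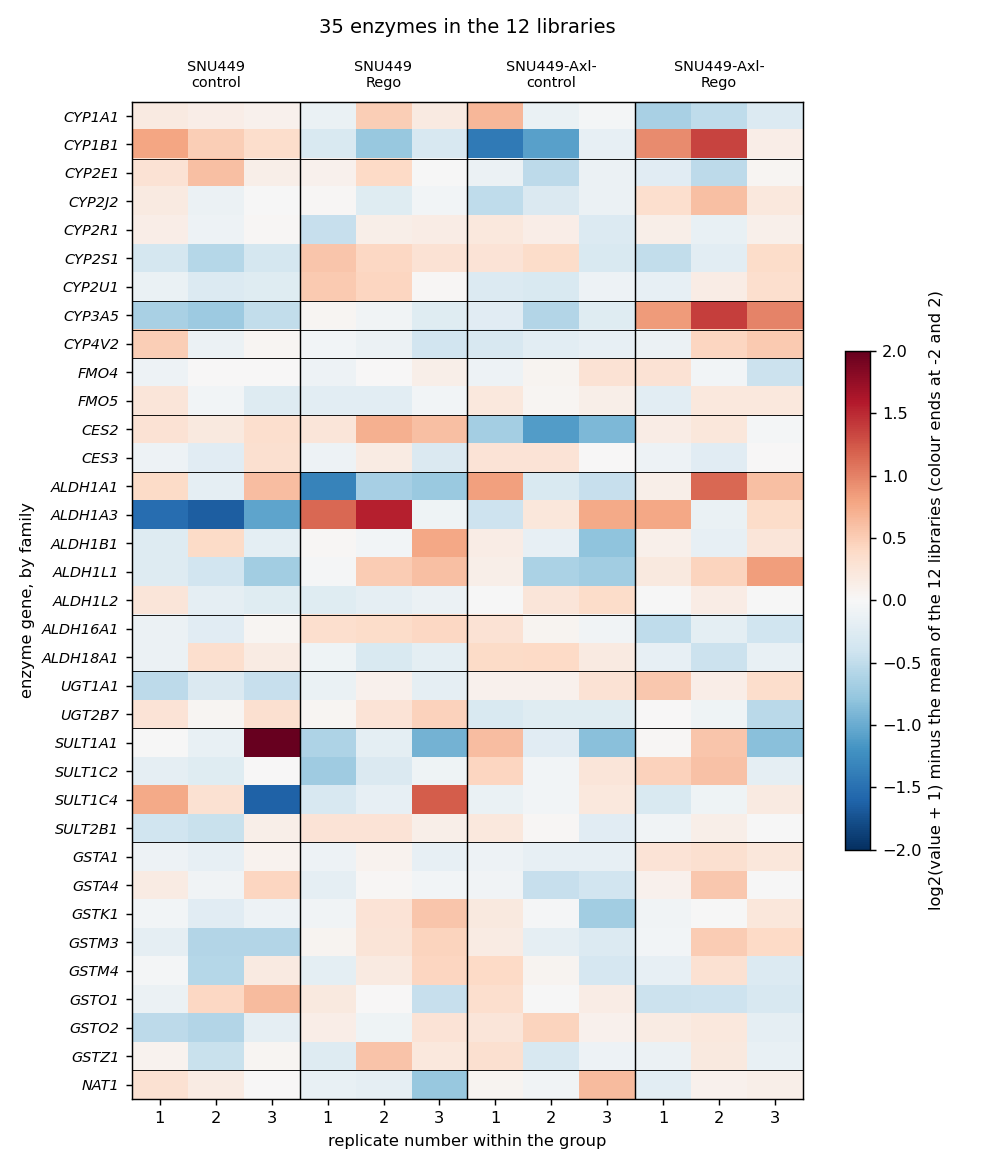
Of the 36 enzymes, 35 (rows, by family) in the 12 libraries (columns, by group and replicate number). Colours give log2(value + 1) minus the gene's mean over the 12 libraries. CYP1B1, CYP3A5, CES2, ALDH1A1 and ALDH1A3 stand out as blocks of 3 libraries, whereas the deepest colours of SULT1A1 (275 in SNU449 control replicate 3) and SULT1C4 (111 in the same library) are those of single libraries.

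In all, 11 of the 36 enzymes were called in at least 1 of 5 comparisons, with 21 calls, and 25 were called in none. The share of all genes called in at least 1 comparison is not given here. This pooled count therefore cannot be set against the shares of single comparisons that follow. With Rego resistance in SNU449 cells 4 of 36 members were called, against 7.81% of all genes, 3 of them higher (4.31% of all genes) and 1 lower (3.5% of all genes). With Rego resistance in SNU449-Axl- cells 5 were called, against 4.35% of all genes, 5 higher (2.54% of all genes) and 0 lower (1.81% of all genes). Loss of Axl in control cells gave 4 called members, against 7.45% of all genes, 2 higher (4.03%) and 2 lower (3.43%). Loss of Axl among the resistant cells gave 4, against 4.37% of all genes, 3 higher (2.44%) and 1 lower (1.93%). The Rego effect differed between the backgrounds, by the interaction term, for 4 members, against 5.87% of all genes, 2 with a higher change in SNU449-Axl- cells (2.92%) and 2 with a lower one (2.95%).

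Members called thus made up 11.1% to 13.9% of the members in each comparison. The fit without the replicate block called 11, 7, 6, 5 and 9 members in the same order, against 13.9%, 9.95%, 14%, 9.63% and 11.7% of all genes. The median log2 fold change of the members was 0.04, 0.06, 0.06, -0.05 and -0.09 in the same order, against -0.00010, 0.0066, 0.0035, 0.014 and 0.011 over all genes. The median absolute log2 fold change of the members was 0.33, 0.26, 0.25, 0.33 and 0.34, against 0.22, 0.21, 0.22, 0.20 and 0.29 over all genes. The calls went in both directions in 4 of the comparisons, whereas all 5 calls with Rego in SNU449-Axl- cells were higher. The members that were not called had log2 fold changes from -1.41 to 0.81 with Rego in SNU449 and from -0.65 to 0.60 with Rego in SNU449-Axl- cells, and the 95% interval of such a change reached a median of 0.44 and 0.45, respectively, to either side.

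Promoter windows of RefSeq (GRCh38.p14, 250 bases before to 50 from the RefSeq start of the gene on) were found for 29 of the 36 members. The RefSeq start can differ from the gene start of the deposited table, and it lay 127 kb inside the annotated gene for ALDH1A1, 2.12 kb inside for ALDH1A3 and 27 and 2 bases inside for CES2 and CYP3A5, so that each window covers 1 of the possible start sites. Those of 4 enzymes whose values carry the results below are shown because these enzymes moved in the same comparison (CES2 and CYP3A5) or belong to the same family and moved apart (ALDH1A1 and ALDH1A3). Capitals mark GCGTG, the core of the xenobiotic response element bound by the aryl hydrocarbon receptor, or its reverse complement.
ALDH1A1 promoter (chr9:72953004-72953303, minus strand): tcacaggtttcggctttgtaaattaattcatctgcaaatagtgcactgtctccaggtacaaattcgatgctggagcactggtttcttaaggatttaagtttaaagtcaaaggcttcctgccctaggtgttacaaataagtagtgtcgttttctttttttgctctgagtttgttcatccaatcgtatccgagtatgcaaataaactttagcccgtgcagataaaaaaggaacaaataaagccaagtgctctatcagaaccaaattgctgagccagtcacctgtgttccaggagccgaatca
ALDH1A3 promoter (chr15:100879581-100879880, plus strand): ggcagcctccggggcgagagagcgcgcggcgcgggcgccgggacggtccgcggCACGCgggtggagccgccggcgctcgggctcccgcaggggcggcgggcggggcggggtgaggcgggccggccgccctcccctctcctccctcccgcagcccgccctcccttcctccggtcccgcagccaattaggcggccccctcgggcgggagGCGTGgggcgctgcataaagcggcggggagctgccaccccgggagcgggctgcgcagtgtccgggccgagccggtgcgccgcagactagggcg
CES2 promoter (chr16:66934221-66934520, plus strand): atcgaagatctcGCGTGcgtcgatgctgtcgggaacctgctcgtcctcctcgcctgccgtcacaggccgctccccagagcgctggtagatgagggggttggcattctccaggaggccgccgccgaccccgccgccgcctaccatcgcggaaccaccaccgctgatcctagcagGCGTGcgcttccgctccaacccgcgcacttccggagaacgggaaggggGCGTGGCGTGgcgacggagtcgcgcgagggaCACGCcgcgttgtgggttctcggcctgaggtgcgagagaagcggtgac
CYP3A5 promoter (chr7:99679947-99680246, minus strand): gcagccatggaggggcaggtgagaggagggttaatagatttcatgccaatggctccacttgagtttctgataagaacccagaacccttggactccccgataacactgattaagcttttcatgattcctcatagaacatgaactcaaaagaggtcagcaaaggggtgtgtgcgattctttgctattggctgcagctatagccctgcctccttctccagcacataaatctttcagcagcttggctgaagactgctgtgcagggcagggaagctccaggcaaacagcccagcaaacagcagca
GCGTG, searched on both strands, occurred in 11 of the 29 windows and in 36.5% of all 35116 windows of this length. The core of the antioxidant response element, TGACNNNGC, occurred in 4 of 29 and in 13.3% of all windows, but not in the windows shown. Of the 8 called members with a window, 3 held GCGTG, namely CES2 with 5 matches, ALDH1A3 with 2 and CYP2J2 with 1, and 0 held TGACNNNGC. The windows of ALDH1A1 and CYP3A5 held neither motif. CYP1B1 and ALDH16A1 had no entry in the promoter table.

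Among the phase I oxidases, CYP1B1 and CYP3A5 changed most clearly. CYP1B1, which hydroxylates estradiol and polycyclic hydrocarbons and is found mainly outside the liver, was called in 4 of the 5 comparisons, with opposite signs of its Rego effect in the backgrounds. CYP3A5, a close relative of CYP3A4, was highest in Rego-resistant SNU449-Axl- cells. The CYP2 enzymes changed less, and CYP4V2, the fatty acid hydroxylase that is the only CYP4 member, was not called in any comparison.

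CYP1B1 (ENSG00000138061.12, chr2:38066973-38109902 of GRCh38, minus strand) had library values of 793, 645 and 588 in SNU449 control and 372, 271 and 368 in SNU449 Rego cells. In SNU449-Axl- cells the values were 172, 217 and 412 in control and 885, 1182 and 503 in Rego-resistant cells. The groups did not overlap in any of the 4 pairs that differ in Rego or Axl alone, with SNU449 control and SNU449-Axl- Rego high and the other groups low. CYP1B1 rose with Rego resistance in SNU449-Axl- cells by a log2 fold change of 1.69 (SE 0.309, adjusted p = 0.00355), whereas its change in SNU449 was -1.00 (SE 0.309, adjusted p = 0.0542). The Rego effect was higher in SNU449-Axl- cells by 2.70 (SE 0.437, adjusted p = 0.00113), the largest interaction among the members. Between the backgrounds, CYP1B1 was lower without Axl in control cells (log2 fold change -1.43, SE 0.309, adjusted p = 0.00763) and higher without Axl in resistant cells (1.27, SE 0.309, adjusted p = 0.0236).

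The interaction of CYP1B1 was called without any single library. Its rise in SNU449-Axl- cells missed the threshold without SNU449-Axl- Rego replicate 2 (1.33, adjusted p = 0.0584), its fall without Axl in control cells without SNU449 control replicate 1 or SNU449-Axl- control replicate 1 or 2 (adjusted p = 0.0545 to 0.0631), and its rise without Axl in resistant cells without any of 5 libraries, namely SNU449 Rego replicates 1, 2 and 3 and SNU449-Axl- Rego replicates 1 and 2 (adjusted p = 0.0556 to 0.21). The mean normalized counts per group, solved from the authors' means of the overlapping tables, were 737 in SNU449 control, 279 in SNU449 Rego, 275 in SNU449-Axl- control and 1014 in SNU449-Axl- Rego cells. Fibronectin (FN1), 1 of the mesenchymal markers, moved with the same signs, with log2 fold changes of -2.24 and 2.47 with Rego in SNU449 and SNU449-Axl- cells and of -2.25 and 2.46 without Axl in control and resistant cells. Of the 5 mesenchymal markers FN1 was the 1 called in these comparisons, and none of the other 4 shared its sign in all of them. With Rego in SNU449-Axl- cells ZEB1 was at 0.38 but SPARC, VIM and CDH2 were at -0.19 to -0.66, and without Axl in resistant cells all of SPARC, VIM, CDH2 and ZEB1 were below 0 (-0.05 to -0.38, median of the 5 markers -0.27). Their summed values ranged from 16054 to 29377 in SNU449 Rego and from 18537 to 21213 in SNU449-Axl- Rego cells, and none was at the minimum. The part of these markers in the changes of CYP1B1 was not tested. CYP1B1 overlaps RMDN2 on the other strand and RMDN2-AS1 on its own strand, and how the counting used strand is not given in the sources used here.

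CYP3A5 (ENSG00000106258.15, chr7:99648194-99679998, minus strand) had library values of 66, 63 and 74 in SNU449 control, 107, 100 and 88 in SNU449 Rego, 89, 69 and 88 in SNU449-Axl- control and 189, 274 and 208 in SNU449-Axl- Rego cells. All libraries of SNU449-Axl- Rego lay above all others. CYP3A5 rose with Rego resistance in SNU449-Axl- cells by 1.43 (SE 0.202, adjusted p = 0.000385) and was higher without Axl among resistant cells by 1.16 (SE 0.202, adjusted p = 0.00235), and both calls were kept without any single library. Its solved mean normalized counts were 42.1, 63.4, 66.2 and 231 in the same order of groups. In SNU449, the SNU449 Rego libraries also lay above the control libraries, but the log2 fold change of 0.53 (SE 0.202, adjusted p = 0.127) did not pass the test, and the difference of the Rego effects of 0.90 (95% interval 0.30 to 1.50, adjusted p = 0.0742) did not either. Without the block, adjusted p-values in limma were 0.0445 for the change in SNU449 and 0.0224 for the difference.

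Of the hepatocyte markers, FGB (fibrinogen beta chain) moved with CYP3A5, with values of 44, 16 and 24 in SNU449 control, 41, 22 and 24 in SNU449 Rego, 36, 63 and 72 in SNU449-Axl- control and 189, 547 and 294 in SNU449-Axl- Rego cells. FGB rose with Rego resistance in SNU449-Axl- cells by 2.49 (SE 0.382, adjusted p = 0.000805) and was higher without Axl in resistant cells by 3.44 (SE 0.382, adjusted p = 2.9e-05). The 3 listed hepatocyte markers summed to 67 to 92, 72 to 85, 98 to 133 and 249 to 606 in the same order of groups, with APOA1 at 19 to 31 in all libraries. AFP was 24, 23 and 21 in SNU449 control and 20, 23 and 27 in SNU449 Rego cells. In SNU449-Axl- cells AFP was 38, 33 and 39 in control and 36, 37 and 29 in resistant cells, without a rise. It was called only without Axl in control cells (0.67), and that call was lost without 6 single libraries. The high sum in SNU449-Axl- Rego cells was thus mainly that of FGB. Of 5 epithelial markers, KRT8 and KRT18 were among the rows analysed. KRT8 (keratin 8) was 159, 140 and 216 in SNU449 control, 133, 208 and 140 in SNU449 Rego, 320, 284 and 276 in SNU449-Axl- control and 542, 444 and 439 in SNU449-Axl- Rego cells, and was thus highest in the group in which CYP3A5 was highest. KRT8 was higher without Axl in control (0.79, SE 0.218, adjusted p = 0.0332) and in resistant cells (1.58, SE 0.218, adjusted p = 0.000248), where the former call was lost without 5 single libraries and the latter was kept without each of the 12, and its change with Rego in SNU449-Axl- cells was 0.69 (SE 0.218, adjusted p = 0.0824). KRT18 was not called, and both markers summed to 826 to 1321, 905 to 1527, 1135 to 1602 and 1515 to 2134 in the same order of groups. The part of the hepatocyte and epithelial markers in the change of CYP3A5 was not tested.

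The 5 members of CYP2 gave 1 call each in both Rego comparisons. CYP2S1, an extrahepatic enzyme that metabolizes retinoids and eicosanoids, had values of 57, 49 and 57 in SNU449 control and 108, 98 and 90 in SNU449 Rego cells and rose by 0.85 (SE 0.237, adjusted p = 0.0336), without overlap. In SNU449-Axl- cells it was 89, 95 and 59 in control and 52, 63 and 95 in resistant cells, with overlapping groups and a log2 fold change of -0.22 (SE 0.237, adjusted p = 0.674). CYP2S1 (chr19:41193210-41207539, plus strand) ends 11.7 kb before AXL on the same strand. Its rise in SNU449 missed the threshold without any 1 of the 6 SNU449 libraries (adjusted p = 0.0629 to 0.153) and with centring on the spike-in RNAs (0.79, adjusted p = 0.0871).

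CYP2J2, an epoxygenase of arachidonic acid, had values of 28, 33 and 37 in SNU449-Axl- control and 51, 62 and 47 in SNU449-Axl- Rego cells. It rose by 0.69 (SE 0.192, adjusted p = 0.0483), whereas it was 46, 37 and 40 in SNU449 control and 41, 34 and 39 in SNU449 Rego cells. This call was lost without any 1 of 9 libraries, namely all of SNU449-Axl-, SNU449 control replicate 2 and SNU449 Rego replicates 1 and 2 (adjusted p = 0.0546 to 0.29). CYP1A1, the classical target of the aryl hydrocarbon receptor, had library values from 20 to 51 and was not called in any comparison with the block. Its values of 20, 22 and 26 in SNU449-Axl- Rego cells lay below those of SNU449-Axl- control (51, 29 and 31) and SNU449 Rego cells (29, 45 and 36). These log2 fold changes were -0.65 and -0.66. Without the block it was called in 1 comparison, lower without Axl in resistant cells. The mean normalized count of CYP1A1 was 7.87, under 10.

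**Figure D2:**
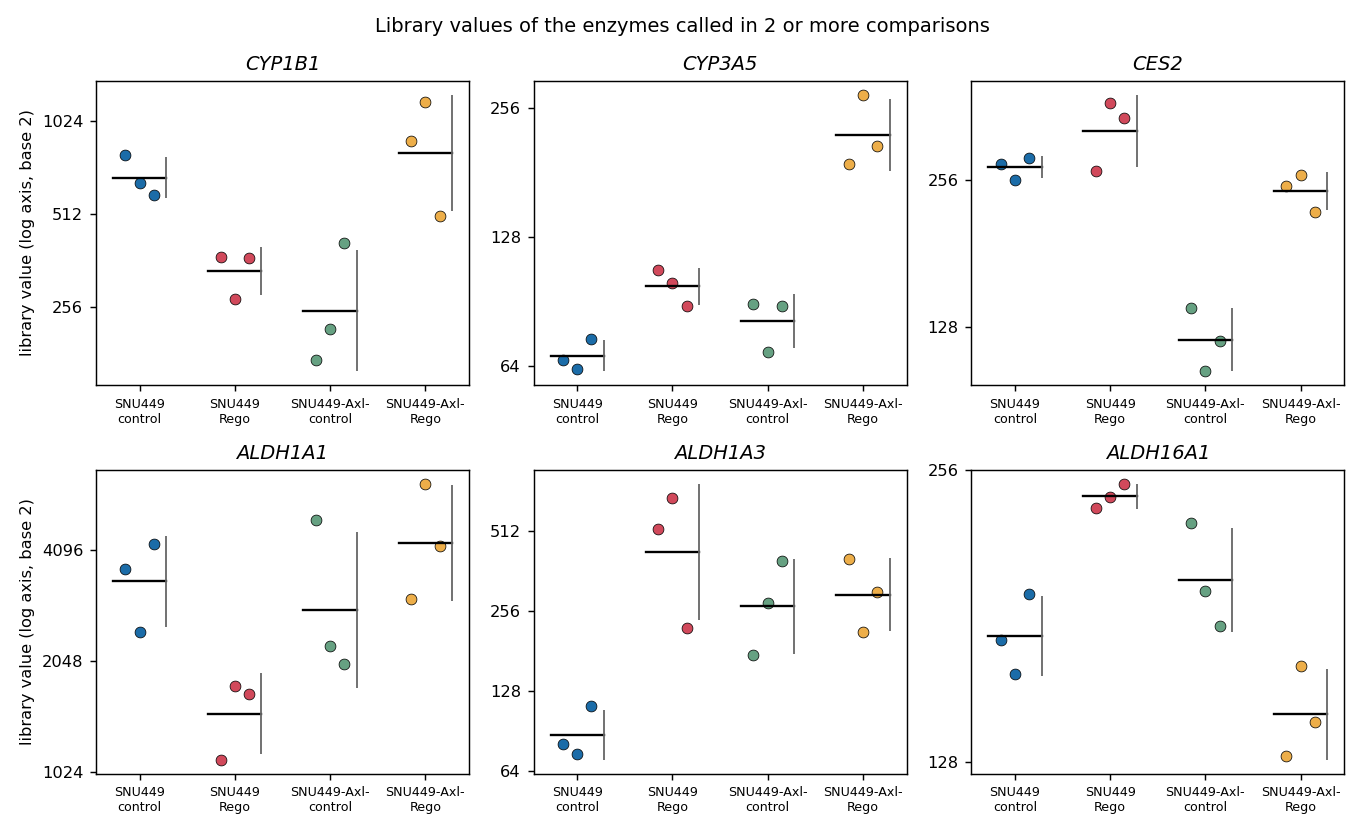
Library values (log axis) of the 6 enzymes that were called in 2 or more comparisons, by group. Points are libraries, horizontal bars the mean and vertical bars 1 SD of log2(value + 1), n = 3. CYP3A5 is highest in the SNU449-Axl- Rego libraries (189 to 274), CES2 lowest in SNU449-Axl- control (104 to 140) and ALDH1A3 lowest in SNU449 control (74 to 112).

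CES2, the carboxylesterase that hydrolyses irinotecan and other ester prodrugs, was low in 1 group, the SNU449-Axl- control cells. Library values (ENSG00000172831.14, chr16:66934444-66945096, plus strand) were 277, 257 and 284 in SNU449 control, 267, 369 and 344 in SNU449 Rego, 140, 104 and 120 in SNU449-Axl- control and 249, 263 and 220 in SNU449-Axl- Rego cells. CES2 fell without Axl in control cells (log2 fold change -1.17, SE 0.194, adjusted p = 0.00102), without any single library as well, and rose with Rego resistance in SNU449-Axl- cells (1.01, SE 0.194, adjusted p = 0.0053). The latter missed the threshold without SNU449-Axl- control replicate 2 (0.87, adjusted p = 0.0653) or SNU449-Axl- Rego replicate 2 (0.94, adjusted p = 0.0552). In SNU449, the groups overlapped and the change was 0.25 (SE 0.194, adjusted p = 0.507), and the difference between the backgrounds of 0.76 was not called with the block (adjusted p = 0.118). Between the resistant cells, CES2 differed by -0.41 (adjusted p = 0.271). The solved mean normalized counts were 250, 286, 111 and 254 in the order of groups above.

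The ALDH1 family gave 7 of the 21 calls, of which ALDH1A1 and ALDH1A3 had 3 each and ALDH1L1 had 1. The comparisons share groups, so these calls are not independent. A share of all genes for such a sum is not given here. ALDH1A1 and ALDH1A3, which both oxidize retinal to retinoic acid and serve as markers of stem-like tumor cells, changed in opposite directions with Rego resistance in SNU449. ALDH1A1 (ENSG00000165092.13, chr9:72900671-73080442, minus strand) had values of 3650, 2458 and 4252 in SNU449 control and 1107, 1752 and 1666 in SNU449 Rego cells. It fell by 1.19 on the log2 scale (SE 0.324, adjusted p = 0.0294), without overlap. In SNU449-Axl- cells the values were 4928, 2252 and 2016 in control and 3017, 6199 and 4209 in resistant cells, which overlapped, with a log2 fold change of 0.60 (SE 0.324, adjusted p = 0.334).

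The Rego effect on ALDH1A1 was higher in SNU449-Axl- cells by 1.79 (SE 0.458, adjusted p = 0.0254), and resistant cells without Axl had more ALDH1A1 than those with Axl, by 1.53 (SE 0.324, adjusted p = 0.0101). Low values were thus those of SNU449 Rego, whose 3 libraries lay below all others. Replicates decided some of these calls. The fall in SNU449 missed the threshold without SNU449 control replicate 1 or 3 or SNU449 Rego replicate 1 or 3 (adjusted p = 0.0587 to 0.174), and the difference between the resistant cells without SNU449 Rego replicate 1 or SNU449-Axl- Rego replicate 2 (adjusted p = 0.0869 and 0.118). The interaction did so without SNU449 control replicate 1 or 3, SNU449 Rego replicate 1, SNU449-Axl- control replicate 2 or 3 or SNU449-Axl- Rego replicate 2 or 3 (adjusted p = 0.0546 to 0.108).

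ALDH1A3 (ENSG00000184254.17, chr15:100877714-100916626, plus strand) had values of 81, 74 and 112 in SNU449 control and 522, 687 and 221 in SNU449 Rego cells. This rise of 2.28 (SE 0.36, adjusted p = 0.000526) was the largest change of a member with Rego resistance, and it was called without any single library, at 1.83 to 2.92. In SNU449-Axl- cells the values of 175, 274 and 396 in control and 402, 213 and 303 in resistant cells overlapped (log2 fold change 0.15, SE 0.36, adjusted p = 0.873). SNU449 control cells thus had the lowest values, and the other 3 groups overlapped with each other. In control cells ALDH1A3 was higher without Axl by 1.60 (SE 0.36, adjusted p = 0.00963), and the Rego effect was lower in SNU449-Axl- cells by 2.13 on the log2 scale (interaction -2.13, SE 0.508, adjusted p = 0.0169). The solved mean normalized counts of 51.5, 455, 280 and 318 followed the same order.

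For the difference between control cells, ALDH1A3 missed the threshold without SNU449 control replicate 1 or 2 or SNU449-Axl- control replicate 2 or 3 (adjusted p = 0.0511 to 0.0888). For the interaction it did so without SNU449 control replicate 2, SNU449 Rego replicate 1 or 2, SNU449-Axl- control replicate 2 or 3 or SNU449-Axl- Rego replicate 2 (adjusted p = 0.0548 to 0.0782). ALDH1L1, the cytosolic formyltetrahydrofolate dehydrogenase, rose with Rego resistance in SNU449-Axl- cells, from 34, 20 and 19 to 36, 43 and 57 (log2 fold change 0.89, SE 0.246, adjusted p = 0.0456). In SNU449 it was 26, 24 and 19 in control and 31, 45 and 48 in resistant cells (0.81, SE 0.246, adjusted p = 0.0516), so that resistant libraries lay above control libraries in both backgrounds, and the difference between the backgrounds was 0.09 (95% interval -0.64 to 0.82). The call was lost without any 1 of 7 libraries, namely SNU449 control replicate 2, SNU449 Rego replicate 2, SNU449-Axl- control replicates 2 and 3 and all of SNU449-Axl- Rego (adjusted p = 0.0514 to 0.242). The mean normalized count of ALDH1L1 was 9.09, under 10, so its fold changes are compressed. Its solved mean normalized counts were 0.216 in SNU449 control, 14.2 in SNU449 Rego, 1.53 in SNU449-Axl- control and 20.5 in SNU449-Axl- Rego cells. ALDH1B1 and ALDH1L2 were not called.

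ALDH16A1, a family member without catalytic activity, was measured because of its name. Its values were 171, 158 and 191 in SNU449 control, 234, 240 and 248 in SNU449 Rego, 226, 192 and 177 in SNU449-Axl- control and 130, 161 and 141 in SNU449-Axl- Rego cells. It was lower without Axl among resistant cells (-0.74, SE 0.185, adjusted p = 0.0273), and the interaction was -0.93 (SE 0.261, adjusted p = 0.0409). In SNU449 the resistant libraries lay above the control libraries, and in SNU449-Axl- cells below them, while neither change was called (0.48, adjusted p = 0.135, and -0.46, adjusted p = 0.179). Both calls of ALDH16A1 were lost with centring on the spike-in RNAs (-0.44, adjusted p = 0.14, and -0.75, adjusted p = 0.139). The difference between the resistant cells was lost without any 1 of the 6 resistant libraries (adjusted p = 0.0588 to 0.176), and the interaction without any 1 library other than SNU449 control replicate 3 and SNU449-Axl- control replicate 3 (adjusted p = 0.0512 to 0.138).

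**Figure D3:**
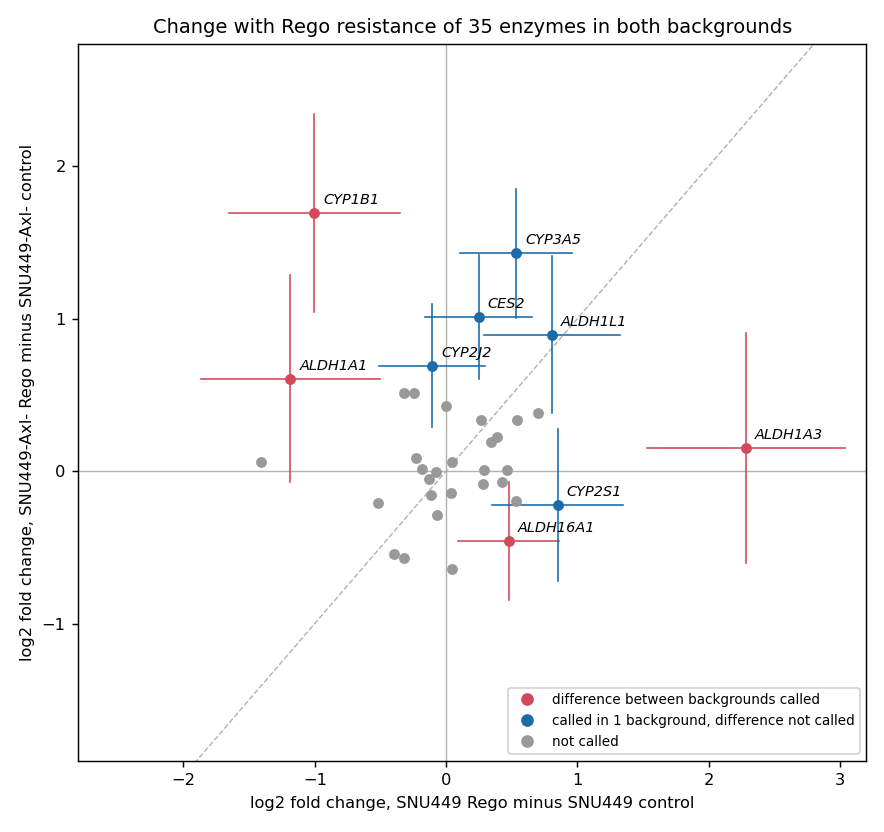
Log2 fold change with Rego resistance of 35 of the 36 enzymes in SNU449 (x axis) and SNU449-Axl- cells (y axis). Bars give the 95% interval for the named enzymes, the dashed line marks equal change, and red marks a called difference between the backgrounds. CYP1B1 (-1.00 and 1.69) and ALDH1A1 (-1.19 and 0.60) lie above the line, ALDH1A3 (2.28 and 0.15) and ALDH16A1 (0.48 and -0.46) below it.

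Among the phase II enzymes, 1 of 15 members was called in limma, in 1 comparison, where 7.45% of all genes were called. Still, 5, 3, 4, 4 and 2 of them had an unadjusted p under 0.05 in the 5 comparisons in the order given above. The matching shares of all genes at an unadjusted p under 0.05 are not given here. The called member was GSTO2, a glutathione transferase with dehydroascorbate reductase activity, with values of 22, 21 and 28 in SNU449 control and 38, 44 and 34 in SNU449-Axl- control cells. It was higher without Axl in control cells by 0.69 (SE 0.194, adjusted p = 0.0372), without overlap, at solved mean normalized counts of 0.839 and 10.8. In resistant cells it was 35, 30 and 39 in SNU449 and 36, 37 and 28 in SNU449-Axl- cells. The call was lost without SNU449 control replicate 1 or 2, SNU449-Axl- control replicate 1 or 2 or SNU449-Axl- Rego replicate 1 (adjusted p = 0.0519 to 0.205) and in the 6-library table of the control cells (0.44, adjusted p = 0.105).

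GSTO1, the neighbouring gene of the same class and the GST member with the highest mean normalized count, had values of 991, 1430 and 1658 in SNU449 control, 1230, 1080 and 780 in SNU449 Rego, 1355, 1067 and 1185 in SNU449-Axl- control and 800, 802 and 862 in SNU449-Axl- Rego cells. The SNU449-Axl- Rego libraries lay below those of SNU449-Axl- control, but the log2 fold change of -0.54 (SE 0.22, adjusted p = 0.18) did not pass the test, and neither did that of -0.39 in SNU449 (SE 0.22, adjusted p = 0.325). GSTO1 and GSTO2 lie 1.41 kb apart on chromosome 10 on the same strand, and their changes differed in sign in 2 of the comparisons, namely with Rego in SNU449 and without Axl in control cells. Chosen after its values were seen, GSTM3, which conjugates electrophiles with glutathione, had 209, 158 and 158 in SNU449 control and 247, 282 and 323 in SNU449 Rego cells, without overlap, and a change of 0.70 (SE 0.213, adjusted p = 0.0512). The other GST members (GSTA1, GSTA4, GSTK1, GSTM4 and GSTZ1) were not called in any comparison, and GSTA1 had library values of 21 to 30.

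The sulfotransferases transfer sulfate from the donor PAPS to phenols and steroids. None of the 4 members was called, and 2 of them, singled out after their values were seen, varied widely between libraries of 1 group. SULT1A1, the main phenol sulfotransferase, was 43, 39 and 275 in SNU449 control, 28, 38 and 22 in SNU449 Rego, 67, 37 and 24 in SNU449-Axl- control and 44, 64 and 24 in SNU449-Axl- Rego cells. The single value of 275 was that of SNU449 control replicate 3, and replicate 3 was the lowest of its group in the other 3 groups. SULT1C4, the SULT member with the highest mean normalized count, was 577, 422 and 111 in SNU449 control and 274, 303 and 793 in SNU449 Rego cells, again with replicate 3 apart, and 277 to 396 in SNU449-Axl- cells.

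The SD of log2(value + 1) in SNU449 control cells was 1.57 for SULT1A1 and 1.26 for SULT1C4, against a median of 0.22 over the members. Because the preparation effect was removed along the replicate number, the deviation of 1 library is partly passed with the opposite sign to the libraries of the same number. The change of SULT1A1 with Rego in SNU449 was -1.41 with a 95% interval of -2.55 to -0.27 (adjusted p = 0.132). SULT1A1 also overlaps 5 other annotated genes on the same strand and has near-identical copies, so that its values are uncertain. SULT1C2 and SULT2B1 had library values of 37 to 93 and 30 to 50.

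UGT1A1, which conjugates bilirubin, had values of 22, 26 and 23 in SNU449 control, 29, 34 and 28 in SNU449 Rego, 34, 34 and 39 in SNU449-Axl- control and 47, 35 and 41 in SNU449-Axl- Rego cells. The values without Axl lay above those with Axl in control and in resistant cells, with log2 fold changes of 0.57 (SE 0.181, adjusted p = 0.0622) and 0.42 (SE 0.181, adjusted p = 0.223) that were not called. All 9 UGT1A genes share a 3′ transcript end, which is the part that QuantSeq reads. How reads of this shared end were assigned to a gene, or whether they were dropped, is not given in the sources used here. The values of UGT1A1 may therefore not measure UGT1A1 as such, and the absence of UGT1A9 does not show that it was not expressed. UGT2B7, which conjugates morphine and steroids and is the UGT member with the highest mean normalized count, was 59, 50 and 61 in SNU449 control, 50, 59 and 67 in SNU449 Rego, 39, 41 and 41 in SNU449-Axl- control and 49, 46 and 33 in SNU449-Axl- Rego cells. In both states its values without Axl lay below those with Axl, at -0.48 (adjusted p = 0.173) and -0.46 (adjusted p = 0.226). NAT1, the acetyltransferase for arylamines, had values of 32 to 85 and was not called.

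The enzymes depend on electron donors and cosubstrates, and of a list of 17 such genes all were tested. With Rego resistance in SNU449, 4 of the 17 fell (3.5% of all genes fell) and 0 rose (4.31%), and in SNU449-Axl- cells 2 rose (2.54% of all genes) and 0 fell (1.81%). The genes that fell in SNU449 were GSR (glutathione reductase, log2 fold change -1.05, SE 0.218, adjusted p = 0.00493), GCLM (the modifier subunit of glutamate-cysteine ligase, -0.78, SE 0.235, adjusted p = 0.0498), PAPSS2 (a PAPS synthase, -0.77, SE 0.208, adjusted p = 0.0274) and UGDH, which makes UDP-glucuronic acid. Those that rose in SNU449-Axl- cells were GCLC, the catalytic subunit of the ligase (1.40, SE 0.272, adjusted p = 0.00577), and PAPSS1 (0.86, SE 0.202, adjusted p = 0.0213).

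GSR had library values of 1035, 896 and 791 in SNU449 control, 458, 333 and 537 in SNU449 Rego, 791, 792 and 779 in SNU449-Axl- control and 869, 1376 and 983 in SNU449-Axl- Rego cells, with all SNU449 Rego libraries below all others. GCLC was 233, 253 and 218 in SNU449 control, 217, 121 and 273 in SNU449 Rego, 128, 125 and 123 in SNU449-Axl- control and 291, 490 and 256 in SNU449-Axl- Rego cells, so that the Rego libraries lay above the control libraries in SNU449-Axl- cells and overlapped with them in SNU449. Without Axl, 0 of the 17 were called in control cells by limma with the block, 5 had an unadjusted p under 0.05 and 3 were called, all lower, without the block. In resistant cells 3 were higher without Axl, against 2.44% of all genes (GSR 1.28, GCLM 1.09 and UGDH 0.80, adjusted p = 0.002, 0.0121 and 0.0255). The interaction was called for 5 genes, all with a higher Rego effect in SNU449-Axl- cells, against 2.92% of all genes, led by GCLC (1.68, SE 0.384, adjusted p = 0.0133), CYB5A (cytochrome b5, 1.49, SE 0.431, adjusted p = 0.0488) and GSR (1.47, SE 0.308, adjusted p = 0.00754). The median log2 fold change of the list was -0.12 with Rego in SNU449 and 0.33 in SNU449-Axl- cells. With centring on the spike-in RNAs, 7 rather than 3 were higher among resistant cells without Axl, and the other counts of the list moved by 1 at most. In resistant cells this centring moved the median of all genes from 0.01 to 0.32. The share of all genes called with it is not given here. Leaving out SNU449 Rego replicate 2 ended the fall of GSR in SNU449 (adjusted p = 0.0561), and leaving out SNU449-Axl- Rego replicate 2 ended the rise (adjusted p = 0.0787) and the interaction (adjusted p = 0.0557) of GCLC. Other calls were lost more often: with Rego in SNU449 GCLM and UGDH each without 9 of the 12 single libraries and PAPSS2 without 5, with Rego in SNU449-Axl- cells PAPSS1 without 4, without Axl in resistant cells GCLM without 3 and UGDH without 4, and for the interaction CYB5A without 8 and GCLM without 6. Without any single library, the calls of GSR without Axl in resistant cells and of the interactions of GSR and UGDH held, whereas the number of genes called ranged from 0 to 4 with Rego in SNU449, from 0 to 4 in SNU449-Axl- cells, from 1 to 5 without Axl in resistant cells and from 2 to 6 for the interaction. POR, the reductase that supplies electrons to the cytochromes P450, had values of 85 to 184 and was not called.

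**Figure D4:**
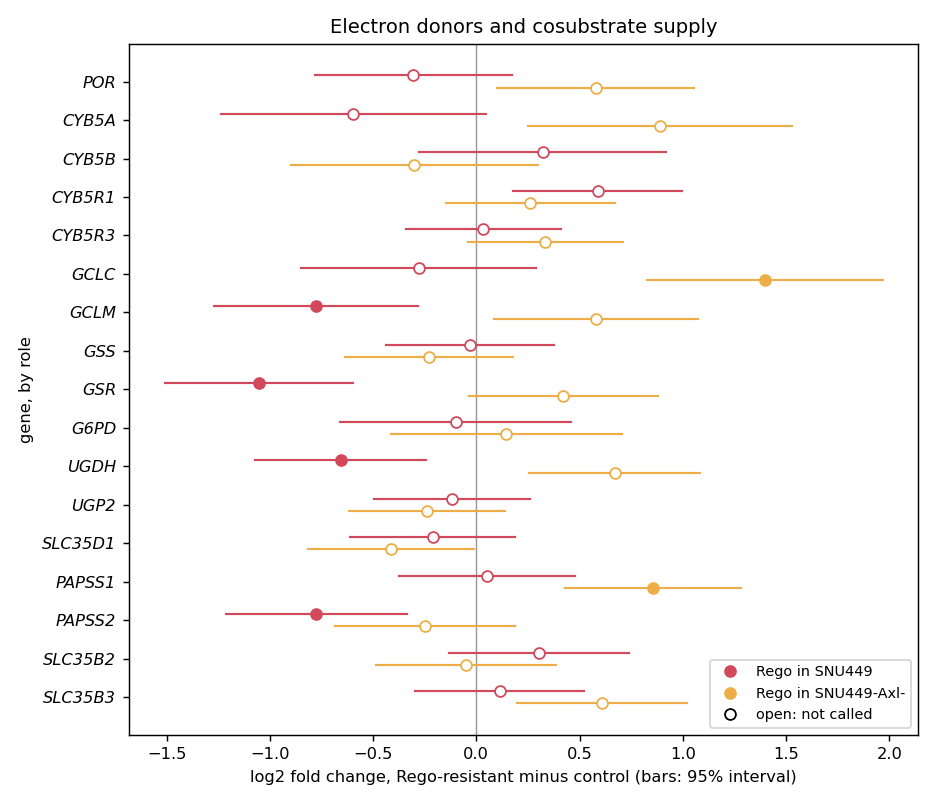
Log2 fold change with Rego resistance of 17 genes for electron donors and cosubstrates in SNU449 (red) and SNU449-Axl- cells (yellow). Bars are 95% intervals and filled points are called genes. GSR, GCLM, UGDH and PAPSS2 fell in SNU449 (-1.05 to -0.66), and GCLC (1.40) and PAPSS1 (0.86) rose in SNU449-Axl- cells.

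Of 19 sensors and regulators of these enzymes, 15 were tested, and in limma 1 or 0 were called per comparison, against 4.35% to 7.81% of all genes, with 4 at an unadjusted p under 0.05 in each. PPARA, the fatty acid receptor, rose with Rego in SNU449 (0.74, SE 0.222, adjusted p = 0.0487), and KEAP1, the inhibitor of NRF2, was higher without Axl in control cells (0.78, SE 0.207, adjusted p = 0.0272). The call of PPARA was lost without 10 of the 12 single libraries and with either other scaling, and that of KEAP1 without 5 libraries. AHR had library values of 117 to 216 and NFE2L2, which encodes NRF2, of 537 to 1154, and neither was called. The pregnane X receptor gene NR1I2 was not among the rows analysed.

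Among 19 genes of retinoid metabolism and signalling around the ALDH1A enzymes, 14 were tested. With Rego in SNU449, where ALDH1A1 fell and ALDH1A3 rose, 2 of the 14 fell and 1 rose, against 3.5% and 4.31% of all genes. RARB, a retinoic acid receptor that is itself a retinoic acid target, fell from 82, 81 and 93 to 32, 40 and 37 (log2 fold change -1.21, SE 0.204, adjusted p = 0.000898), DHRS9 fell by 0.85 (SE 0.177, adjusted p = 0.00503) and RDH13 rose by 0.71 (SE 0.185, adjusted p = 0.0229). In SNU449-Axl- cells 1 rose with Rego, against 2.54% of all genes, the retinol carrier RBP4, from 31, 24 and 22 to 83, 125 and 156 (2.17, SE 0.234, adjusted p = 3.23e-05).

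Without Axl, RDH10, which oxidizes retinol to retinal, the substrate of the ALDH1A enzymes, was higher in control (1.74, SE 0.32, adjusted p = 0.00239) and in resistant cells (2.20, SE 0.32, adjusted p = 0.000407). Its values of 53 to 102 in all SNU449 libraries lay below those of 167 to 563 in all SNU449-Axl- libraries. In control cells DHRS9 was lower, so that 1 gene of the list was higher and 1 lower, against 4.03% and 3.43% of all genes. In resistant cells 5 were higher and 1 was lower, against 2.44% and 1.93% of all genes, led by RDH10, RBP4 (1.69, SE 0.234, adjusted p = 0.000254) and DHRS3 (1.15, SE 0.288, adjusted p = 0.0281), while the median of the list was 0.01. The interaction was called for RBP4 (1.46, SE 0.331, adjusted p = 0.0126) and RDH13 (-1.34, SE 0.262, adjusted p = 0.0047), 1 in each direction against 2.92% and 2.95% of all genes. RARB, DHRS9 with Rego in SNU449, RDH10 in both states, RBP4 and both interactions were called without any single library, except the difference of RARB in resistant cells. RDH13 with Rego in SNU449 was lost without 5 libraries and with spike-in centring (0.65, adjusted p = 0.0577), DHRS9 in control cells without 2 libraries and DHRS3 without 4. Without Axl in resistant cells RARB was lost without 3 libraries. RDH13, the 1 lower gene there, was lost without 5 and with spike-in centring (-0.57, adjusted p = 0.0594). The number of genes of the list called in that comparison ranged from 2 to 6 over the leave-outs. The catabolic enzyme CYP26B1 had library values of 22 to 33.

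Of 45 further phase I and II enzymes outside the rule, 36 were tested. With Rego in SNU449, 2 rose and 4 fell, against 4.31% and 3.5% of all genes. PTGES, the prostaglandin E synthase (1.73, SE 0.397, adjusted p = 0.0104), and HNMT, the histamine methyltransferase (0.88, SE 0.201, adjusted p = 0.01), rose, and NNMT, the nicotinamide methyltransferase, fell most (-1.21, SE 0.241, adjusted p = 0.00367). With Rego in SNU449-Axl- cells, 4 rose and 1 fell, against 2.54% and 1.81% of all genes. NNMT fell there as well (-1.29, SE 0.241, adjusted p = 0.00427), from 1507, 1408 and 1478 to 518, 549 and 754, and the fatty aldehyde dehydrogenase ALDH3A2 (1.23, SE 0.173, adjusted p = 0.000374) and the acetaldehyde dehydrogenase ALDH2 (1.06, SE 0.192, adjusted p = 0.00342) rose.

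Without Axl, 2 of these 36 were higher and 5 lower in control cells, against 4.03% and 3.43% of all genes, with PTGES (2.15, SE 0.397, adjusted p = 0.00245), the vitamin D hydroxylase CYP24A1 (1.70, SE 0.287, adjusted p = 0.00119) and the epoxide hydrolase EPHX1 (-1.02, SE 0.245, adjusted p = 0.015) changed most. In resistant cells 1 was higher, against 2.44% of all genes, namely CYP24A1 (2.73, SE 0.287, adjusted p = 1.99e-05), whose values were 58 to 99 in SNU449 Rego and 359 to 641 in SNU449-Axl- Rego cells. For 5 genes the Rego effect was higher in SNU449-Axl- cells, against 2.92% of all genes, led by EPHX1 (1.66, SE 0.347, adjusted p = 0.00754), ADH5 (1.24, SE 0.251, adjusted p = 0.00594) and ALDH2 (0.97, SE 0.272, adjusted p = 0.0396), and 0 were lower. With centring on the spike-in RNAs, 12 rather than 1 of the 36 were higher without Axl among resistant cells, and 2 rather than 5 were lower in control cells. This centring moved the median of all genes to 0.32 and 0.13 in these comparisons. The share of all genes called with it is not given here. NNMT, ALDH3A2, CYP24A1, PTGES in control cells, ALDH2 with Rego and the interactions of EPHX1 and ADH5 were called without any single library. PTGES and HNMT with Rego in SNU449 were each lost without 3 libraries, EPHX1 in control cells without 4 and the interaction of ALDH2 without 9.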

How the data were processed

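RNA of 12 libraries (4 groups, 3 libraries each) was measured by QuantSeq 3′ sequencing. Per the labels and the study's methods, the authors trimmed reads with cutadapt 4.0, aligned them with STAR 2.5.3a to a GRCh38 reference extended by the spike-in RNAs (annotation GENCODE release 40), counted reads per gene, filtered low counts and ran DESeq2 with the preparation in the model. The deposited library values are a score: variance-stabilized expression, with preparation differences subtracted by limma, taken back from the log2 scale and rounded to whole numbers. The deposited mean normalized count (a signal, the authors' mean over the libraries of a table) carries no error. Columns with the authors' own fold changes, their errors and p-values were not used. The depth of single libraries is unknown, so no counting intervals are given.

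Differences were fitted in limma 3.58.1 (R 4.3.3) on log2(value + 1) with 4 group means and the replicate number as a block, and adjusted by Benjamini-Hochberg over 15601 genes. This departs from the count model of the study because the values are not counts. The block was kept because removal of the preparation effect had left the mean deviation of a replicate number at a median of 0.00126 against 0.122 for a library from its group, and same-numbered deviations correlated at -0.485 to -0.0906, so the numbers do not pair samples in these values beyond that removal. Group means of normalized counts were solved from the means of overlapping tables, with a median error of 0.26% over 7555 genes. A test of the fit on simulated data missed part of the changes that had been put in, so a gene that was not called may still have changed. Other scripts used Python 3.11.15 and pandas 2.3.3.

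Members, lists and tests were chosen with earlier results of these data known. Named with values were members called in at least 1 comparison and the member of each family with the highest mean count, and of other lists at most 3 called genes per comparison; others named by role (AHR, NFE2L2, POR and CYP26B1) or after their values were seen are outside this rule. Alternatives were the fit without the block, other tables, pseudocounts of 0 and 10, a minimum mean count of 10, 2 scalings, a prior without trend and leaving out each library. Scaling and leave-outs of the lists were added after seeing the data. The values of 1 called member and of 1 called list gene are not reported here, although both are included in the counts.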

Additional observations from a re-analysis of the deposited data

Results flagged for a closer look

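For 4 members the Rego effect differed between SNU449-Axl- and SNU449 cells by the interaction term in limma, which is why they are listed here. The difference was 2.70 on the log2 scale for CYP1B1, 1.79 for ALDH1A1, -2.13 for ALDH1A3 and -0.93 for ALDH16A1, where a positive value is a higher Rego effect in SNU449-Axl- cells. The difference for CYP1B1 was called without any single library, and those of the other 3 were lost without 7, 6 and 10 of the 12 single libraries, respectively.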

How the results depend on the processing

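Of the 21 calls, all kept their direction under every alternative run, and all were kept without the replicate block, with pseudocounts of 0 and 10, with upper-quartile rescaling and without a trend. Without the replicate block the members called rose from 4 to 11 with Rego in SNU449 and from 4 to 9 for the interaction. The share of all genes called rose as well, from 7.81% to 13.9% and from 5.87% to 11.7%. Centring on the spike-in RNAs moved the median of all genes to -0.06, 0.13, 0.13, 0.32 and 0.19 (log2) in the order of the report, called 9 rather than 4 members without Axl in resistant cells, and lost 3 calls (CYP2S1 and both of ALDH16A1). Of the called members, 2 of 4, 5 of 5, 3 of 5, 9 of 9 and 4 of 5 were then higher, against 3 of 4, 5 of 5, 2 of 4, 3 of 4 and 2 of 4. The share of all genes called with this centring is not given here. These counts thus cannot separate a gain of the enzymes from the shift of all genes. The 6-library tables lost GSTO2 and give no interaction, and the other 12-library table lost CYP2J2 (0.67, adjusted p = 0.0523). A minimum mean count left 18 of the calls tested and kept them. Leaving out single libraries gave 2 to 7, 1 to 5, 1 to 4, 1 to 4 and 1 to 4 called members, and 15 of the 21 calls were lost at least once. Over all genes, the leave-outs called 740 to 1299, 205 to 891, 540 to 1275, 219 to 826 and 523 to 922. These leave-outs are incomplete, since the deposited values were adjusted with the library left out. With 3 technical libraries per group and unknown depth, enzymes near the minimum value cannot be resolved.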
